A study of Mus musculus with 75 samples.

Results

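The transcripts described here encode 10 regulators that write, copy, erase or read out gene silencing in chromatin. They were taken by gene symbol, with no threshold on a measured value but with earlier results of these data known, from the 55536 genes of a liver RNA-seq table: the DNA methyltransferases Dnmt1, Dnmt3a and Dnmt3b, the hemimethylation reader Uhrf1, the methylcytosine dioxygenases Tet1, Tet2 and Tet3, and the Polycomb genes Ezh1, Ezh2 and Suz12. All 10 were in the table and passed the filter on low counts in every comparison. Liver RNA came from wild-type C57Bl/6 mice labelled male, whose dams received either vehicle or TBT (tributyltin, a tin-containing pollutant) in drinking water, the latter at a dose of 0.5 mg per kg per day until weaning. No mouse carried an engineered allele per the labels, and exposure was through the dam in every TBT group, so that the offspring were sampled at 3 weeks, 5 months or 10 months without further dosing being described. At 3 weeks there were 7 vehicle samples from 8 libraries and 8 TBT samples. The 5-month samples were of 8 vehicle mice and of TBT mice at low risk (16) and high risk (10), where risk refers to liver tumors and the basis of its assignment is not given in the labels. At 10 months there were 6 vehicle samples, 5 low-risk TBT samples, 5 samples of uninvolved liver from high-risk TBT mice (6 libraries) and 7 tumors of TBT mice. A further library of 10 months was labelled both vehicle and tumor and entered no comparison. The title numbers were taken as mice. Litters are not given, so p-values measure the spread between these samples and cannot account for siblings that shared a dam.

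In mammals, DNMT3A and DNMT3B place methyl groups on CpG sites, and DNMT1, guided by UHRF1 to newly copied DNA, restores them on the daughter strand. TET enzymes oxidise methylcytosine, which opens the way to its removal. Polycomb repressive complex 2 (PRC2) methylates histone H3 at a lysine of its tail through its catalytic subunit EZH2 or EZH1 and needs SUZ12 for its assembly. EZH2 is known as the subunit of dividing cells and EZH1 as that of resting cells. The adult liver divides little, whereas the weanling liver still grows.

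Libraries held 2.83 to 45.4 M (mega) counts. The 6 uninvolved libraries stood apart from the other 10-month groups, with 34.8 to 44.6 M counts, 24676 to 28715 genes detected and 4.20% to 5.85% mitochondrial counts, against 22.5 to 33.5 M counts, 21078 to 23868 genes and 2.64% to 3.83% in vehicle, low-risk and tumor libraries. These differences cannot be told apart from the group. Uninvolved libraries 3 and 6 differed by a chi-square of 3.48 per gene, against 39.3 for the next closest pair of that group, and were summed as 1 sample. At 5 months, vehicle 9 was shallow (2.83 M counts, 38206 genes), high-risk 10 had 39669 genes, and high-risk 15 and low-risk 16 had 14.5% and 11.2% mitochondrial counts. The library labelled 3-week TBT 4 went against its label: its Xist level was 348 CPM (counts scaled to library size, per M counts), and its 4 Y-linked genes summed to 7.08 CPM, where other libraries had at most 84.6 CPM of Xist (low-risk 24 of 5 months) and at least 93.9 CPM of the Y-linked genes. Of the 5-month libraries, 7 high-risk, 10 low-risk and 1 vehicle were sequenced in batch 2, and everything else in batch 1. Counts are as deposited, already adjusted between batches per the name of the deposited table, and may differ from raw read counts. The fits within single batches used these adjusted counts as well. The summed level of 6 hepatocyte markers was at least 36034 CPM in every sample, and none of them was at 0 in a group. Levels are CPM after trimmed-mean (TMM) scaling, and differences are log2 fold changes with their standard error (SE), tested with edgeR across all genes and adjusted by Benjamini-Hochberg at 0.05. The alternatives counted beside some results are other scalings, filters, tools and fits, single batches and samples left out in turn. In bulk liver RNA, fewer cells of a type and less RNA per cell cannot be told apart.

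By the GENCODE M21 annotation of GRCm38, the genes that copy methylation lie apart, Dnmt1 at chr9:20907209-20959888 (minus strand) and Uhrf1 at chr17:56303321-56323486 (plus strand). Those of new methylation are Dnmt3a at chr12:3806007-3914443 (plus strand) and Dnmt3b at chr2:153649450-153687730 (plus strand). The dioxygenases are Tet1 at chr10:62804570-62908996 (minus strand), Tet2 at chr3:133463679-133545139 (minus strand) and Tet3 at chr6:83362373-83459084 (minus strand). The Polycomb genes are Ezh2 at chr6:47530139-47595341 (minus strand), Ezh1 at chr11:101191115-101226463 (minus strand) and Suz12 at chr11:79993106-80034123 (plus strand). Exons of antisense genes overlap Dnmt3a, Suz12, Ezh2 and Tet2, and these antisense genes had at most 1.32 CPM in any sample. Promoter letters are shown because the transcripts nearest in level to Uhrf1, Dnmt1 and Ezh2 included genes of DNA replication (given below). Promoters of 300 bases (250 before to 50 after each RefSeq start, GRCm38.p6) were searched on both strands for 4 forms of the E2F consensus, TTTCCCGC, TTTGGCGC, TTTCGCGC and TTTGCCGC. E2F factors are known as the switch of S-phase genes. A match was found for 4 of the 10 genes (Uhrf1, Dnmt1, Ezh2 and Suz12) and in 9 of 23 genes of a DNA replication list, against 2.26% of all 32851 promoters and 704 of all 27025 genes. Other lists had 3 of 23 DNA methylation partners, 1 of 11 PRC2 partners and 0 of 16 PRC1 subunits. They also had 1 of 10 opponents of Polycomb marks, 2 of 15 germline genes and 1 of 12 developmental genes. All 4 forms contain CG, and the matching promoters held 31 to 41 CG sites, against a median of 7 over all promoters. The share over all promoters is thus not matched for CG content, and these counts were not tested. The windows below are printed 5′ to 3′ on the gene's own strand, with the matching letters in capitals. The Uhrf1 window (chr17:56304088-56304187, plus strand, build GRCm38.p6) lies inside the GENCODE gene between exons, and its match starts 185 bases before the RefSeq start. The Suz12 window (chr11:79992856-79992955, plus strand) lies just upstream of the GENCODE gene, with its match 219 bases before the start. The Dnmt1 match (chr9:20952824-20952853, minus strand) lies 219 bases before 1 of 3 RefSeq starts, inside an exon of a longer GENCODE transcript, and its capitals read TTTCGCGC on the opposite strand. A second match in the same Dnmt1 promoter, TTTGGCGC on the gene's own strand, begins 33 bases after that start and lies outside the window shown. The Ezh2 match (chr6:47595009-47595038, minus strand) begins 3 bases after the start, inside an exon.
Uhrf1: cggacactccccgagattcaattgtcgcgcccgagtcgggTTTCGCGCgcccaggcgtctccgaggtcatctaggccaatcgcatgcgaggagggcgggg
Suz12: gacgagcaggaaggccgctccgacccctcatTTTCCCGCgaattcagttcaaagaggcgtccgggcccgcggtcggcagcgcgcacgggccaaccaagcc
Dnmt1: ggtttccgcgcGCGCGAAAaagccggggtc
Ezh2: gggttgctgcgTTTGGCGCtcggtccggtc
A match describes letters only and no factor binding was measured. No form was found in the RefSeq promoters of Dnmt3a, Dnmt3b, Tet1, Tet2, Tet3 and Ezh1, which says only that these letters are not in those windows.

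Divided by exon length (CPM per kb), Suz12 had the highest median of the 10 transcripts in each of the 9 groups and Tet1 the lowest. In 3-week vehicle livers the medians, in CPM per kb, ran from 7.43 for Suz12 and 4.46 for Dnmt1 through 2.46 for Ezh1, 2.37 for Tet3, 2.35 for Dnmt3a and 2.05 for Uhrf1 to 1.37 for Tet2, 1.04 for Ezh2, 1.01 for Dnmt3b and 0.113 for Tet1. The ranges of neighbours in this order overlapped, except that Dnmt1 lay above Ezh1 and Dnmt3b above Tet1 in all samples. Whether neighbours differed within samples was not tested. In 5-month vehicle livers the order was Suz12 (6.09 CPM per kb), Ezh1 (3.40), Dnmt1 (2.73), Dnmt3a (1.58), Tet3 (1.34), Tet2 (0.912), Dnmt3b (0.767), Ezh2 (0.630), Uhrf1 (0.189) and Tet1 (0.0176). By its median, Uhrf1 was in the sixth place at 3 weeks, where its range (1.67 to 4.57 CPM per kb) overlapped those of Dnmt1, Ezh1, Tet3, Dnmt3a and Tet2, and in the ninth at 5 months, and it held the ninth place in low-risk livers of 5 months (0.262 CPM per kb), in vehicle livers of 10 months (0.176) and in low-risk livers of 10 months (0.198). It was sixth again in high-risk livers of 5 months (1.81) and in tumors (1.16), and eighth in uninvolved livers (0.567). Suz12 and Ezh1 were apart in vehicle livers of 10 months (6.61 to 7.32 against 2.84 to 3.38 CPM per kb) and overlapped in uninvolved livers (3.15 to 5.71 against 3.16 to 4.27). Tet1 rested on 1 to 88 counts per sample, Uhrf1 on 3 to 849 and Dnmt3b on 1 to 192, so low values of these 3 carry large counting error. The other 7 transcripts had at least 10 counts in every sample.

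**Figure D1:**
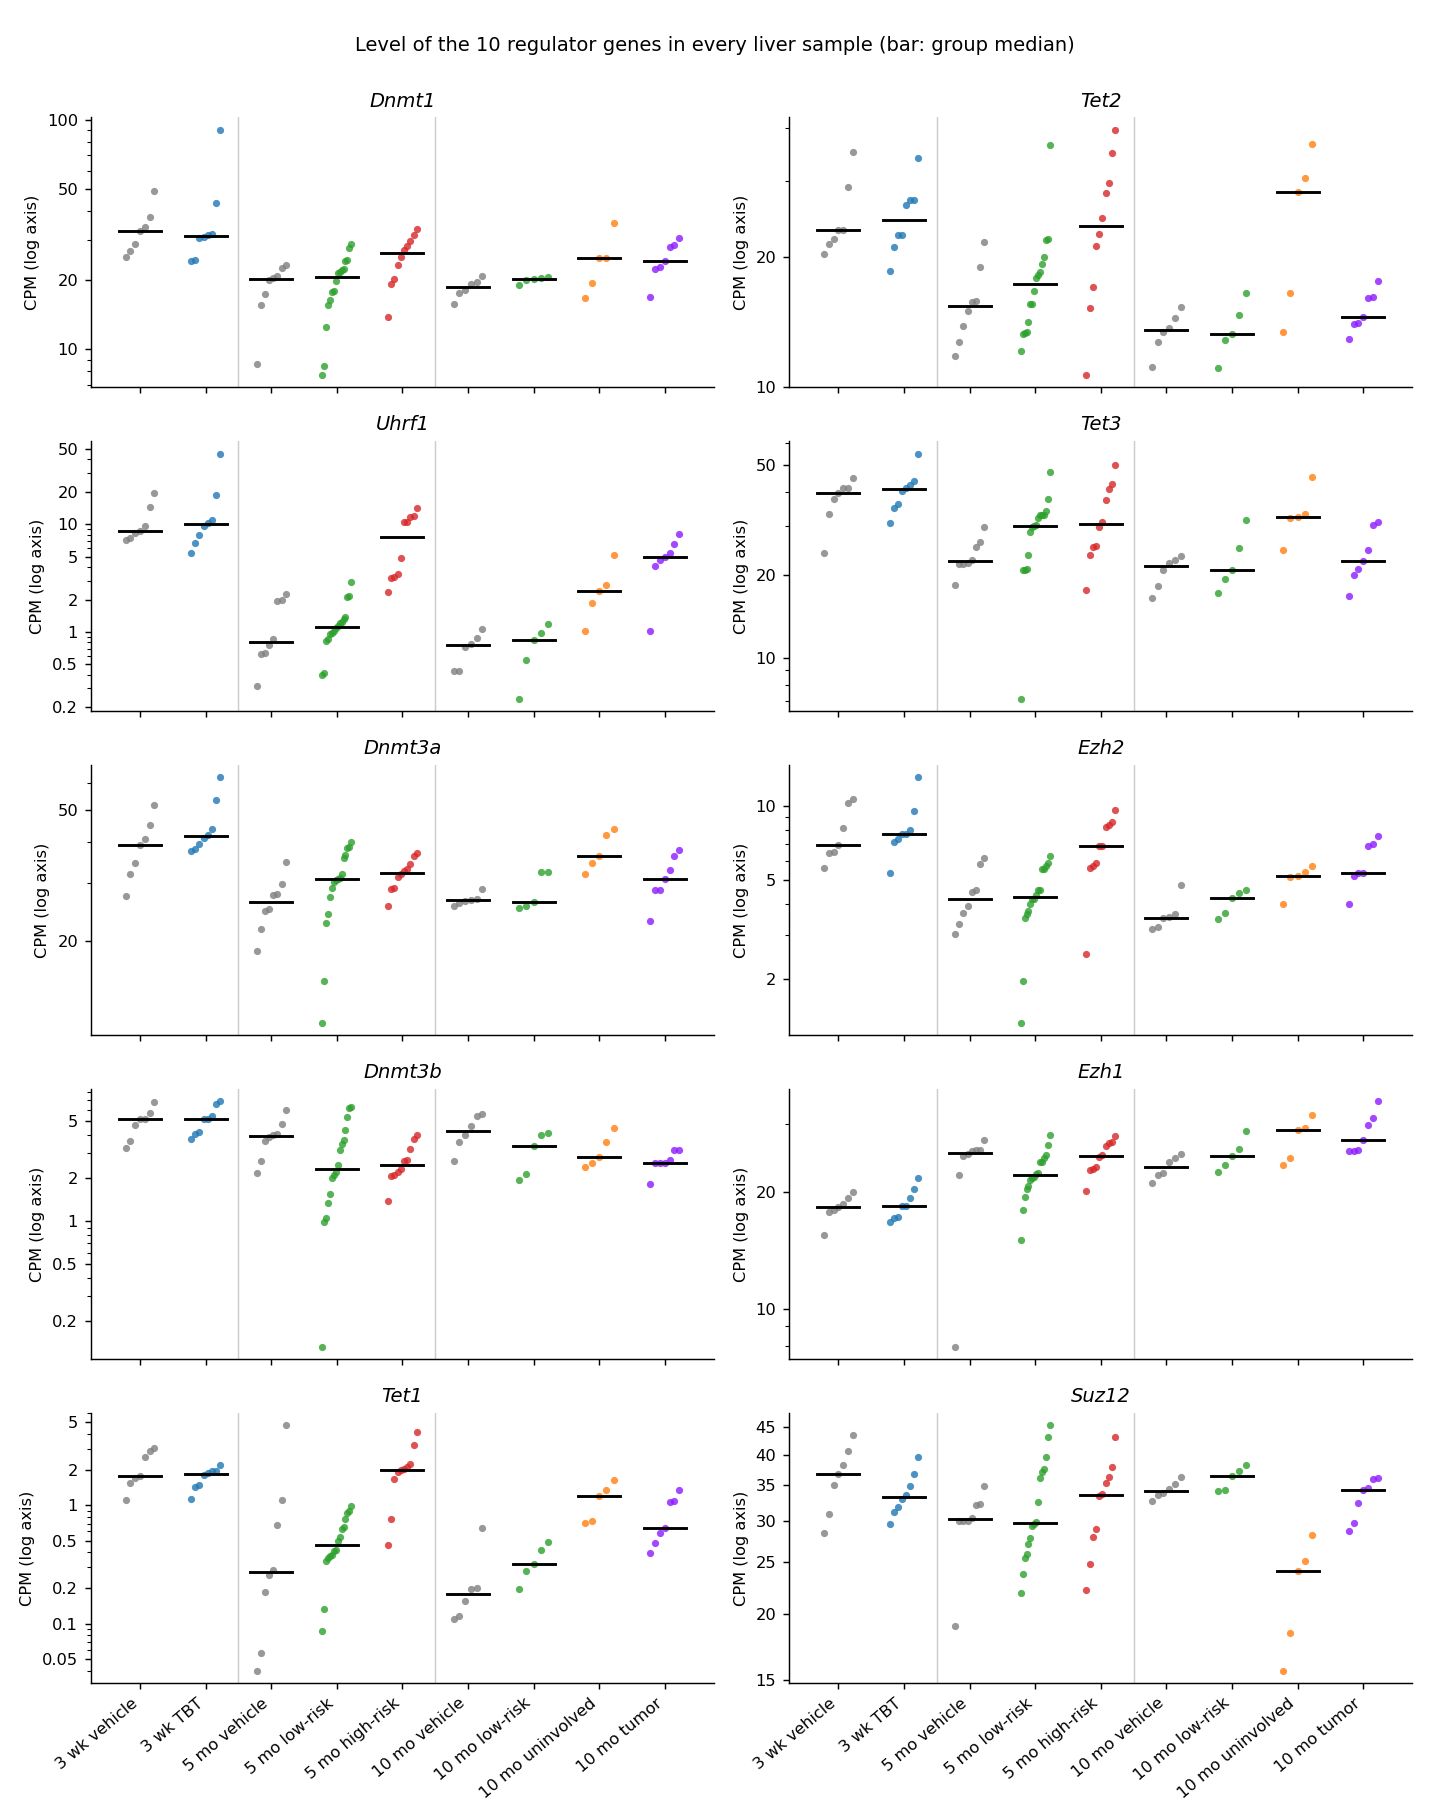
TMM-scaled CPM of each of the 10 transcripts (log axis) in every sample, by age and group; each point is 1 sample and bars mark the group medians. Uhrf1 spans from 0.239 CPM in a 10-month low-risk liver to 45.3 CPM in the library labelled 3-week TBT 4.

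In vehicle livers, Uhrf1, Dnmt1, Dnmt3a, Tet3 and Ezh2 were lower and Ezh1 was higher at both adult ages than at 3 weeks, and Tet1 and Tet2 were lower at 10 months. Between 3 weeks and 5 months, 6 of the 10 transcripts passed the edgeR test at an adjusted p under 0.05 (5 lower, 1 higher), against 24.2% of the 14962 genes tested (12.3% lower, 11.9% higher). Between 3 weeks and 10 months 8 passed (7 lower, 1 higher), against 40.3% of these genes (21.5% lower, 18.7% higher). Between 5 and 10 months 0 passed by edgeR, against 14.1% of genes, with 1 member at an unadjusted p under 0.05 and 1 called by DESeq2 (Tet1, -2.67, adjusted p = 0.0136). These fits used vehicle libraries of batch 1 only, 7 of them at 5 months.

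Uhrf1, which recruits DNMT1 to hemimethylated DNA, had 7.13 to 19.5 CPM with a median of 8.73 CPM in 3-week vehicle livers, 0.312 to 2.27 CPM with a median of 0.806 CPM at 5 months and 0.431 to 1.05 CPM with a median of 0.751 CPM at 10 months. The adult samples all lay below the weanling ones, as in 3.64% of genes at 5 months and 14.6% at 10 months. The log2 fold change from 3 weeks was -3.15 to 5 months (SE 0.40, edgeR adjusted p = 4.50e-06) and -3.92 to 10 months (SE 0.42, edgeR adjusted p = 3.07e-07). Dnmt1, the maintenance methyltransferase, had 25.3 to 49.0 CPM with a median of 32.9 CPM at 3 weeks, 8.61 to 23.2 CPM with a median of 20.2 CPM at 5 months and 15.7 to 20.8 CPM with a median of 18.7 CPM at 10 months, again without overlap between weanlings and adults. Its log2 fold change was -0.85 (SE 0.13, edgeR adjusted p = 4.80e-05) to 5 months and -0.89 (SE 0.13, edgeR adjusted p = 2.24e-05) to 10 months. Whether Uhrf1 fell more than Dnmt1 was not tested. Among the enzymes of new methylation, Dnmt3a fell by 0.56 to 5 months (SE 0.13, edgeR adjusted p = 0.00247) and by 0.57 to 10 months (SE 0.13, edgeR adjusted p = 0.00140), with overlapping groups at both ages. Dnmt3b, its relative, had 3.26 to 6.76 CPM with a median of 5.15 CPM at 3 weeks and 2.65 to 5.57 CPM with a median of 4.28 CPM at 10 months (edgeR adjusted p = 0.538), which did not pass.

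Of the dioxygenases, Tet1 had 1.11 to 3.04 CPM with a median of 1.75 CPM at 3 weeks and 0.109 to 0.647 CPM with a median of 0.176 CPM at 10 months, a fall of 3.16 on the log2 scale (SE 0.88, edgeR adjusted p = 0.00665) without overlap. Tet2 fell by 0.92 (SE 0.21, edgeR adjusted p = 0.00163) and Tet3 by 0.90 (SE 0.19, edgeR adjusted p = 0.000765) over the same interval. All 3 were lower in every 10-month vehicle than in any 3-week vehicle. By 5 months, Tet3 had fallen (log2 fold change -0.58, SE 0.18, edgeR adjusted p = 0.0260), whereas Tet1 (-1.05, edgeR adjusted p = 0.399) and Tet2 (-0.52, edgeR adjusted p = 0.0737) did not pass. Vehicle 9 of 5 months, the shallow library, had the highest Tet1 of its group, and with it and 1 of the 2 libraries of 3-week vehicle 3 (13.5% mitochondrial counts) left out both passed by edgeR, Tet1 at -2.49, adjusted p = 0.00108 and Tet2 at -0.69, adjusted p = 4.42e-05.

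The catalytic subunits of PRC2 went opposite ways with age. Ezh2 had 5.63 to 10.7 CPM with a median of 6.94 CPM at 3 weeks and 3.19 to 4.8 CPM with a median of 3.54 CPM at 10 months, a fall of 1.12 on the log2 scale (SE 0.23, edgeR adjusted p = 0.000602). Ezh1 had 15.5 to 20.1 CPM with a median of 18.3 CPM at 3 weeks and 21.2 to 25.2 CPM with a median of 23.2 CPM at 10 months and rose by 0.31 (SE 0.09, edgeR adjusted p = 0.00842). Neither gene's groups overlapped between these ages, and 13.5% of genes lay higher in all 10-month vehicles, as Ezh1 did. By 5 months Ezh2 had fallen by 0.72 (edgeR adjusted p = 0.0249) and Ezh1 had risen by 0.35 (edgeR adjusted p = 0.00562). Suz12, the scaffold that both subunits share, did not pass, with a difference of -0.12 between 3 weeks and 10 months (95% interval -0.30 to 0.07, edgeR adjusted p = 0.329). As CPM per kb, the ratio of Ezh2 to Ezh1 was 0.349 to 0.651 (median 0.468) in 3-week vehicles and 0.148 to 0.253 (median 0.164) in 10-month vehicles. The ratio of Uhrf1 to Dnmt1 was 0.403 to 0.731 (median 0.511) and 0.0392 to 0.104 (median 0.0689), so that neither ratio overlapped between the ages.

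Genes of DNA replication and S phase, a list of 27, fell as well: 23 fell and 0 rose between 3 weeks and 5 months, with a median log2 fold change of -1.52 against 0.02 for all genes tested, and 25 fell by 10 months (median -2.13). Over all genes, 24.2% were called between 3 weeks and 5 months (12.3% lower, 11.9% higher). Of 24 tested partners of DNA methylation, 4 fell and 2 rose by 5 months, among them Lig1 (-2.13, SE 0.23, adjusted p = 7.18e-07), the ligase of lagging-strand DNA, and Hells (-2.11, SE 0.35, adjusted p = 0.000107), a chromatin remodeller needed for DNA methylation. Of 11 PRC2 partners, 4 fell and 1 rose, with falls of Rbbp7 (-0.51, SE 0.10, adjusted p = 0.000695) and Jarid2 (-0.41, SE 0.12, adjusted p = 0.0144) and a rise of Phf1 (0.46, SE 0.13, adjusted p = 0.0109), an accessory subunit. Markers of several non-hepatocyte types also fell from 3 weeks to 5 months: 5 of 6 stellate cell, 6 of 6 endothelial, 5 of 6 Kupffer cell and 4 of 5 erythroid precursor markers, while 1 of 6 hepatocyte markers fell. The remaining erythroid precursor marker rose, and of 5 tested cholangiocyte markers 1 rose and 0 fell. Summed endothelial markers were 488 to 546 CPM (median 509.7) at 3 weeks and 120.3 to 452 CPM (median 299) at 5 months. Their part in the age differences was not tested.

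At 3 weeks, TBT and vehicle livers did not differ detectably in any of the 10 transcripts. By edgeR 0 passed, as did 0% of the 14050 genes tested, and 0 members had an unadjusted p under 0.05 (474 genes did). DESeq2 called 0 members as well. The log2 differences ran from -0.26 for Tet1 (95% interval -0.72 to 0.19) to 0.44 for Uhrf1 (95% interval -0.43 to 1.31). Uhrf1 had 5.37 to 45.3 CPM with a median of 9.99 CPM in TBT livers and 7.13 to 19.5 CPM with a median of 8.73 CPM in vehicle livers. Dnmt1 had 24.2 to 90.5 CPM with a median of 31.1 CPM against 25.3 to 49.0 CPM with a median of 32.9 CPM. The highest value of both genes was in the library labelled TBT 4, whose Xist and Y-linked levels go against its label, and without it the differences were -0.09 for Uhrf1 and -0.10 for Dnmt1. Among the Polycomb genes the interval was narrowest for Ezh1, at -0.11 to 0.19, followed by that of Suz12, at -0.28 to 0.09.

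At 5 months, high-risk livers had more Uhrf1, Tet1, Ezh2, Dnmt1 and Tet2 RNA than low-risk livers. These 5 of the 10 transcripts passed the edgeR test, all higher, against 38.9% of the 14773 genes tested in either direction and 20.3% in the higher direction. The members' median log2 difference was 0.28, beside -0.01 over all genes. Dnmt3a, Dnmt3b, Tet3, Ezh1 and Suz12 did not pass. The basis of the risk label at this age is not given, so it is not known whether these expression values had a part in it.

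Uhrf1 had 0.399 to 2.91 CPM with a median of 1.12 CPM in low-risk livers and 2.32 to 14 CPM with a median of 7.69 CPM in high-risk livers. The groups overlapped only between 2.32 and 2.91 CPM, and the fitted level was 5.54-fold higher in high-risk livers (log2 fold change 2.47, SE 0.34, adjusted p = 8.10e-07 by edgeR). The 3 high-risk samples of batch 1 had 2.32, 3.18 and 3.42 CPM, and the 7 of batch 2 had 3.21, 4.84, 10.5, 10.6, 11.7, 11.9 and 14 CPM, so that the highest values were all of batch 2. Within batch 1 the log2 difference was 1.34 (SE 0.65, adjusted p = 0.266) with 3 against 6 samples, and within batch 2 2.85 (SE 0.29, adjusted p = 5.65e-07) with 7 against 10. Dnmt1, its partner in maintenance methylation, had 7.72 to 28.7 CPM with a median of 20.6 CPM in low-risk and 13.8 to 33.3 CPM with a median of 26.2 CPM in high-risk livers, with broad overlap. It was 1.29-fold higher (log2 fold change 0.37, SE 0.14, adjusted p = 0.0401 by edgeR), and the call was lost in 14 of 43 alternatives, including both single batches, where the differences were 0.18 (SE 0.24, adjusted p = 0.737) and 0.42 (SE 0.18, adjusted p = 0.0763). As CPM per kb, Uhrf1 to Dnmt1 was 0.0444 to 0.256 (median 0.0917) in low-risk and 0.234 to 0.873 (median 0.439) in high-risk livers. The ranges met in a narrow band, since the highest low-risk ratio was just above the lowest high-risk one.

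Neither enzyme of new DNA methylation passed the test between the risk groups. Dnmt3a, the form prevalent in adult tissues, had 11.3 to 39.9 CPM with a median of 30.7 CPM in low-risk and 25.5 to 36.9 CPM with a median of 32.2 CPM in high-risk livers, with a log2 difference of 0.13 (95% interval -0.13 to 0.39, edgeR adjusted p = 0.456). Dnmt3b had 0.133 to 6.27 CPM with a median of 2.33 CPM and 1.38 to 4.03 CPM with a median of 2.48 CPM, and the difference of -0.05 had a 95% interval of -0.64 to 0.54 (edgeR adjusted p = 0.906). The interval of Dnmt3b is the wider. Against vehicle livers, however, which had 2.17 to 6.02 CPM with a median of 3.92 CPM, Dnmt3b was lower in high-risk livers (0.456 times the vehicle level, log2 fold change -1.13, SE 0.38, adjusted p = 0.0381 by edgeR). In low-risk livers the difference from vehicle was nearly as large (log2 fold change -1.08, SE 0.36, adjusted p = 0.555 by edgeR) but did not pass. The high-risk call was lost in 10 of 43 alternatives, among them the one without vehicle 9 (-0.92, adjusted p = 0.0564). In batch 1, vehicle livers had 2.17, 2.64, 3.62, 3.84, 4.08, 4.73 and 6.02 CPM, low-risk livers 0.133, 1.06, 1.34, 1.56, 2.09 and 2.46 CPM and high-risk livers 2.07, 2.20 and 2.33 CPM. The low-risk values of batch 1 reached into the vehicle range with the highest of them only, whereas those of batch 2 ran up to 6.27 CPM.

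Of the TET family, Tet1 had the largest difference. It had 0.0865 to 0.979 CPM with a median of 0.458 CPM in low-risk and 0.459 to 4.13 CPM with a median of 1.99 CPM in high-risk livers and was 4.05-fold higher in the latter (log2 fold change 2.02, SE 0.53, adjusted p = 0.00246 by edgeR). The low-risk values rested on 1 to 17 counts and the high-risk values on 6 to 82. Within batch 1 the log2 difference was 2.26 (SE 1.15, adjusted p = 0.290), and within batch 2 it was 1.82 (SE 0.38, adjusted p = 0.00103), so that both batches gave a higher level and the smaller did not reach the threshold. Tet2, an enzyme best known from blood cells, had 12.1 to 36.4 CPM with a median of 17.3 CPM and 10.7 to 39.6 CPM with a median of 23.7 CPM. Its difference was small beside the spread (1.39-fold, log2 fold change 0.48, SE 0.19, adjusted p = 0.0481 by edgeR) and the call was lost in 29 of 43 alternatives, for example without high-risk 15, a library with many mitochondrial counts (0.35, adjusted p = 0.183). Tet3 had 7.09 to 47.1 CPM with a median of 30.1 CPM and 17.7 to 50.0 CPM with a median of 30.5 CPM and did not pass (log2 difference 0.19, 95% interval -0.18 to 0.57, edgeR adjusted p = 0.435). The medians of this gene were nearly equal.

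Among the PRC2 subunits, Ezh2 was higher in high-risk livers and Ezh1 and Suz12 did not pass. Ezh2 had 1.33 to 6.28 CPM with a median of 4.28 CPM in low-risk and 2.53 to 9.59 CPM with a median of 6.90 CPM in high-risk livers (1.59-fold, log2 fold change 0.67, SE 0.21, adjusted p = 0.00986 by edgeR). The upper part of the high-risk values lay above every low-risk value, and the lower part among them. Within batch 1 the difference was 0.47 (SE 0.42, adjusted p = 0.582), and within batch 2 it was 0.70 (SE 0.19, adjusted p = 0.00858). Ezh1 had 15 to 28.1 CPM with a median of 22.1 CPM and 20.2 to 28.0 CPM with a median of 24.8 CPM, a log2 difference of 0.19 (SE 0.08) that missed the threshold (edgeR adjusted p = 0.0679) and passed it in 8 of 43 alternatives. Suz12 had 21.8 to 45.4 CPM with a median of 29.7 CPM and 22.2 to 43.2 CPM with a median of 33.5 CPM (log2 difference 0.05, 95% interval -0.17 to 0.26, edgeR adjusted p = 0.767). As CPM per kb, Ezh2 to Ezh1 was 0.0679 to 0.436 (median 0.200) in low-risk and 0.100 to 0.433 (median 0.326) in high-risk livers. The ranges overlapped almost wholly.

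Against vehicle livers of 5 months, 2 of the 10 passed in high-risk livers, Uhrf1 (higher) and Dnmt3b (lower), against 15.8% of genes (8.47% higher, 7.38% lower). Uhrf1 had 0.312 to 2.27 CPM with a median of 0.806 CPM in vehicles, so that the highest vehicle value came next to the lowest high-risk value of 2.32 CPM. Which of this pair is higher depends on the scaling. The gene was 4.77-fold higher in high-risk livers (log2 fold change 2.25, SE 0.48, adjusted p = 0.00204 by edgeR). With batch 1 alone, 3 high-risk against 7 vehicle samples, the Uhrf1 difference was 1.16 (SE 0.64, adjusted p = 0.468), and its call was lost in 3 of 43 alternatives. Vehicle 9, the shallow library, had the highest vehicle values of Tet1 (4.73 CPM) and the lowest of Ezh1 and Suz12. Without it 5 members passed: Uhrf1, Tet1 (2.57, adjusted p = 0.000939), Tet2 (0.93, adjusted p = 0.00391), Tet3 (0.61, adjusted p = 0.0489) and Ezh2 (0.70, adjusted p = 0.0404), all higher by edgeR. The share of all genes called in that fit is not given here, and the 15.8% above belongs to the fit with vehicle 9. Between low-risk and vehicle livers 0 members and 0% of genes passed by edgeR, 1 member (Dnmt3b) had an unadjusted p under 0.05, and DESeq2 called 0. The comparisons with vehicle and with low-risk livers share the high-risk samples.

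**Figure D2:**
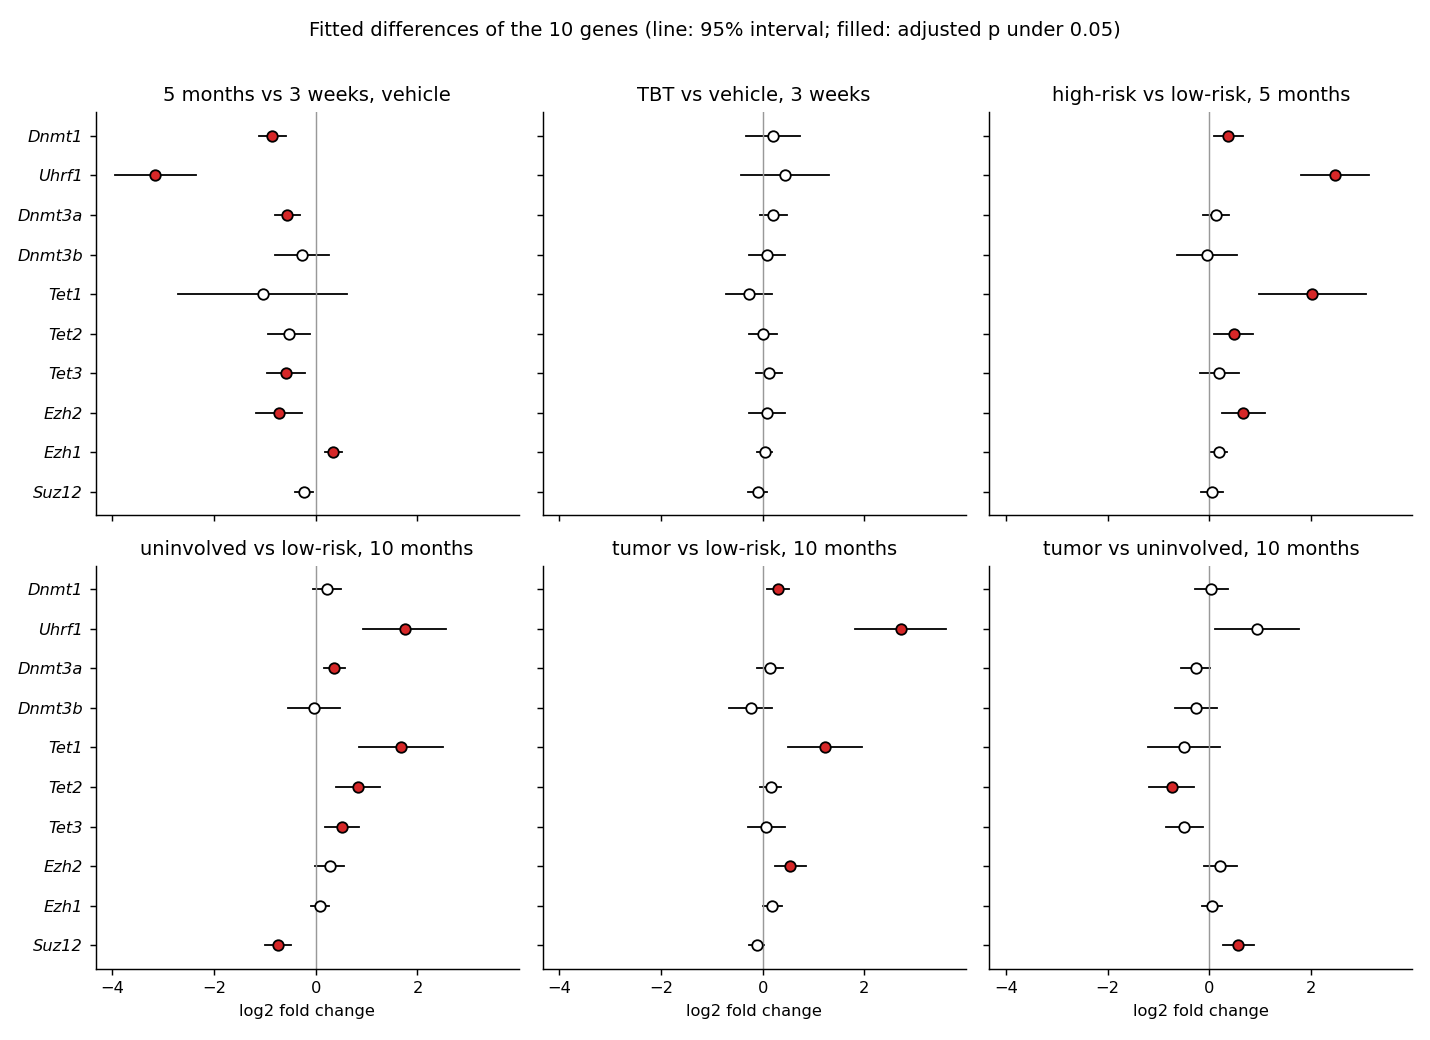
Log2 fold change of each transcript (x axis) with its 95% interval in 6 comparisons; filled points passed an adjusted p of 0.05 by edgeR. Uhrf1 sits at 2.47 for high-risk against low-risk livers and at -3.15 for 5-month against 3-week vehicles.

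Counts of called genes among the partners of these regulators are read against the 38.9% of all genes called in this comparison, and those of the DNA methylation, PRC2 and PRC1 lists were near or below that share. Of 24 tested partners of DNA methylation, 5 were higher and 2 lower in high-risk than low-risk livers of 5 months (median log2 difference -0.03, against -0.01 over all genes). The higher ones included Hells (1.44, SE 0.35, adjusted p = 0.00114), Lig1 (1.06, SE 0.24, adjusted p = 0.000662) and Qser1 (0.65, SE 0.18, adjusted p = 0.00509), a factor that keeps DNMT3 enzymes away from bivalent promoters, and the lower ones were Zbtb38 (-0.34, SE 0.10, adjusted p = 0.00538), a reader of methylated DNA, and Ehmt1 (-0.29, SE 0.09, adjusted p = 0.0102), a histone H3 lysine methyltransferase. Of 11 PRC2 partners, 2 were higher, Aebp2 (0.53, SE 0.11, adjusted p = 0.000215) and Lcor (0.37, SE 0.11, adjusted p = 0.00839), and 2 lower, the core histone-binding subunit Rbbp4 (-0.68, SE 0.09, adjusted p = 4.71e-07) and the histone-mark reader Eed (-0.26, SE 0.09, adjusted p = 0.0246). Core PRC2 transcripts thus went different ways, with Ezh2 higher and Rbbp4 and Eed lower. Of 21 PRC1 subunits, 5 were higher and 2 lower, among them the chromobox reader Cbx6 (1.13, SE 0.17, adjusted p = 4.58e-06) and the ubiquitin ligase Ring1 (-0.38, SE 0.11, adjusted p = 0.00731). Of 14 opponents of Polycomb marks, 1 was higher and 0 lower.

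DNA replication genes had the highest count of these lists. High-risk livers had higher levels of 19 of the 26 tested and a lower level of 1, with a median log2 difference of 1.27, among them the proliferation antigen Mki67 (3.22, SE 0.39, adjusted p = 2.61e-07), the cyclin Ccna2 (3.14, SE 0.40, adjusted p = 3.80e-07) and the helicase subunit Mcm6 (1.70, SE 0.23, adjusted p = 6.90e-07), while the atypical E2F repressor E2f8 (-1.52, SE 0.42, adjusted p = 0.00432) was lower. The mean log2(CPM + 1) of the 27 genes was 1.75 to 2.44 (median 2.15) in low-risk and 2.21 to 3.55 (median 3.13) in high-risk livers. Markers of other cell types moved as well. Of 6 cholangiocyte markers 4 were higher and 0 lower, and their summed level was 25.8 to 233 CPM (median 46.8) in low-risk and 33.2 to 345 CPM (median 266) in high-risk livers. Of 6 stellate cell markers 4 were higher and 1 lower (summed 290.1 to 626 CPM (median 483) against 492 to 1313 CPM (median 966)). Of 6 hepatocyte markers 0 were higher and 3 lower, of 6 endothelial markers 1 was higher and 4 lower, and of 4 tested T and NK cell markers 3 were higher and 1 lower. No marker of these lists was at 0 throughout a group. Their part in the differences of Uhrf1, Tet1, Ezh2, Dnmt1 and Tet2 was not tested.

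**Figure D3:**
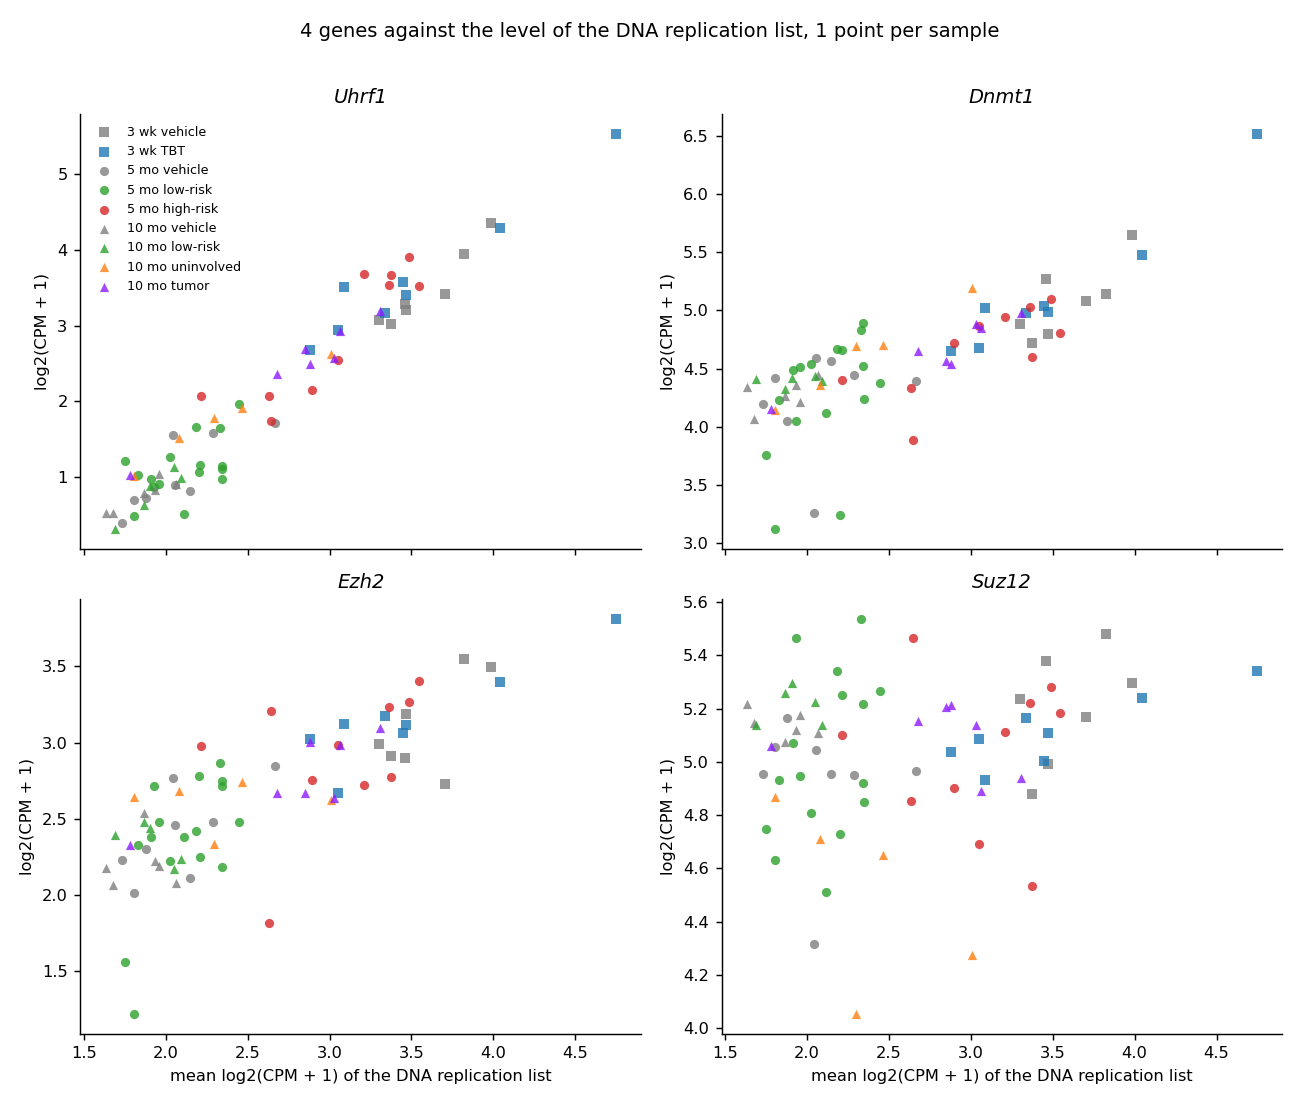
Level of Uhrf1, Dnmt1, Ezh2 and Suz12 in every sample (y axis, log2(CPM + 1)) against the mean log2(CPM + 1) of the 27 replication genes (x axis); colours mark groups. For Uhrf1, 3-week samples lie at the upper right and adult vehicle samples at the lower left. High-risk livers and tumors run from near the adult vehicle samples into the 3-week range on both axes. Replication scores are 2.21 to 3.55 in high-risk livers and 1.78 to 3.31 in tumors, against 2.88 to 4.75 in 3-week TBT livers. The lowest Suz12 value of 15.6 CPM belongs to an uninvolved liver of medium replication score.

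At 10 months, uninvolved liver of high-risk mice had more Uhrf1, Tet1, Tet2, Tet3 and Dnmt3a and less Suz12 RNA than low-risk liver. These 6 of the 10 passed by edgeR (5 higher, 1 lower), against 52.4% of the 16338 genes tested (27.7% higher, 24.7% lower). The share called is near that of all genes. The median log2 difference of all 10 was 0.32, beside 0.05 over all genes.

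Suz12 was lower in every uninvolved sample. The 5 low-risk livers had 34.2, 34.3, 36.4, 37.3 and 38.3 CPM, and the 5 uninvolved livers had 15.6, 18.3, 24.1, 25.2 and 28.2 CPM. The groups did not overlap, as in 15.8% of genes whose uninvolved samples were all the lower, and the uninvolved level was 0.599 times the low-risk level (log2 fold change -0.74, SE 0.13, adjusted p = 0.000141 by edgeR). Vehicle livers had 32.7 to 36.2 CPM with a median of 34.1 CPM and gave a similar difference (log2 fold change -0.69, SE 0.12, adjusted p = 0.000138 by edgeR). The call held in all alternatives run for both comparisons. The antisense gene Gm26563, which overlaps a Suz12 exon on the other strand, had 0.318 to 1.02 CPM in uninvolved and 0 to 0.398 CPM in low-risk livers, so its counts were small beside those of Suz12. The kit is stranded per the labels, and the strand setting of the counting is not given in the sources used here.

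Neither catalytic subunit fell with Suz12. Ezh2 had 3.50, 3.70, 4.25, 4.44 and 4.58 CPM in low-risk and 4.03, 5.17, 5.24, 5.43 and 5.69 CPM in uninvolved livers, and its difference missed the threshold against low-risk (log2 fold change 0.28, SE 0.14, adjusted p = 0.106 by edgeR) and passed it as a rise against vehicle livers (log2 fold change 0.41, SE 0.13, adjusted p = 0.0144 by edgeR). Ezh1 had 22.6, 23.6, 24.8, 25.8 and 28.7 CPM and 23.5, 24.5, 28.9, 29.3 and 31.8 CPM (log2 difference 0.09, 95% interval -0.09 to 0.27, edgeR adjusted p = 0.426). The 2 groups overlapped for both catalytic subunits. Of 11 PRC2 partners 4 were lower, among them Rbbp4 (-0.74, SE 0.11, adjusted p = 3.98e-05), Eed (-0.37, SE 0.09, adjusted p = 0.00348) and Rbbp7 (-0.25, SE 0.07, adjusted p = 0.00595), all core subunits, and 1 was higher, Phf1 (0.24, SE 0.09, adjusted p = 0.0346). Of all genes 52.4% were called here (24.7% lower, 27.7% higher), so that in both directions together the PRC2 partners were called no more often. Rbbp4 and Eed were also lower in high-risk livers at 5 months (values above), where Suz12 did not pass.

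Of the methylation-copying genes, Uhrf1 had 0.239, 0.545, 0.845, 0.974 and 1.18 CPM in low-risk and 1.02, 1.86, 2.42, 2.75 and 5.18 CPM in uninvolved livers, which met at a single uninvolved sample within the low-risk range. It was 3.36-fold higher (log2 fold change 1.75, SE 0.41, adjusted p = 0.00190 by edgeR). Dnmt1 had 19.1, 20.1, 20.2, 20.5 and 20.7 CPM and 16.7, 19.5, 25, 25 and 35.5 CPM, and the uninvolved samples lay on both sides of the narrow low-risk range (log2 difference 0.22, 95% interval -0.06 to 0.50, edgeR adjusted p = 0.188). Against vehicle livers Dnmt1 was 1.25-fold higher (log2 fold change 0.32, SE 0.13, adjusted p = 0.0473 by edgeR), a call lost in 17 of 25 alternatives. Dnmt3a had 25.1, 25.5, 26.4, 32.3 and 32.4 CPM in low-risk and 31.9, 34.4, 36.3, 42.0 and 43.6 CPM in uninvolved livers and was 1.29-fold higher (log2 fold change 0.37, SE 0.10, adjusted p = 0.00739 by edgeR). The 2 highest low-risk livers lay within the uninvolved range and the other 3 below it. Dnmt3b did not pass against low-risk livers (log2 difference -0.03, 95% interval -0.54 to 0.47, edgeR adjusted p = 0.922) or vehicle livers (-0.52, edgeR adjusted p = 0.0754).

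All 3 TET transcripts were higher in uninvolved livers. Tet1 had 0.195, 0.277, 0.318, 0.417 and 0.49 CPM in low-risk and 0.71, 0.742, 1.20, 1.35 and 1.62 CPM in uninvolved livers, without overlap, as in 14.3% of genes whose uninvolved samples were all the higher (3.18-fold, log2 fold change 1.67, SE 0.41, adjusted p = 0.00296 by edgeR). These values rested on 5 to 14 counts in low-risk and 25 to 88 in uninvolved samples. Tet2 had 11.1, 12.8, 13.2, 14.7 and 16.5 CPM and 13.4, 16.5, 28.4, 30.6 and 36.7 CPM (1.79-fold, log2 fold change 0.84, SE 0.22, adjusted p = 0.00403 by edgeR). Its uninvolved values fell into a low pair, mouse 12 and the summed libraries of mice 3 and 6, and 3 high samples, mice 1, 5 and 7. Tet3 had 17.2, 19.3, 20.8, 24.9 and 31.5 CPM and 24.7, 32.2, 32.5, 33.2 and 45.2 CPM (1.43-fold, log2 fold change 0.52, SE 0.17, adjusted p = 0.0151 by edgeR), with the highest low-risk liver inside the uninvolved range. Mice 1, 5 and 7 also had the higher Suz12, Tet1 and Dnmt3a values of the 5, and their libraries detected 27120 to 28715 genes with 5.30% to 5.85% mitochondrial counts, against 24676 to 25339 genes and 4.20% to 4.38% in the libraries of mice 3, 6 and 12. The part of these library measures in the values was not tested.

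Against vehicle livers of 10 months, 8 of the 10 passed in uninvolved livers (7 higher, 1 lower), against 57.7% of genes (31.2% higher, 26.5% lower). They were the 6 above with Dnmt1 and Ezh2. Dnmt3a and Tet1 lay above every vehicle sample, as 15.3% of genes did, and Suz12 below, as 15.7% did. Tet3 had 16.5 to 23.3 CPM with a median of 21.5 CPM in vehicles and lay above them on this scale but not under the scaling of the fit. Between low-risk and vehicle livers of 10 months 0 members and 0% of genes passed by edgeR, 0 members had an unadjusted p under 0.05, and DESeq2 called 0. The change of the risk difference from 5 to 10 months was tested as an interaction, and by edgeR 0 of the 10 passed, against 0.448% of 16084 genes. By DESeq2 0 members passed, and 1 had an unadjusted p under 0.05 by edgeR, Suz12, whose change of the difference was log2 fold change -0.78, SE 0.21, adjusted p = 0.0850. With uninvolved libraries 3 and 6 as separate samples it passed (-0.84, adjusted p = 0.0338).

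The following counts are read against the 52.4% of all genes called between uninvolved and low-risk livers (27.7% higher, 24.7% lower). In both directions together, each of these gene lists was near or below that share. Of 25 partners of DNA methylation tested, 8 were higher and 3 lower in uninvolved than low-risk livers (median 0.15, all genes 0.05), among them Hells (1.14, SE 0.25, adjusted p = 0.00145), Zbtb4 (0.59, SE 0.10, adjusted p = 0.000136), a reader of methylated DNA, the glycosylase Mbd4 (0.91, SE 0.21, adjusted p = 0.00192) and, lower, the co-repressor Trim28 (-0.44, SE 0.10, adjusted p = 0.00141). Of 21 PRC1 subunits 8 were higher and 4 lower, including Cbx6 (1.08, SE 0.15, adjusted p = 2.06e-05) and Ring1 (-0.29, SE 0.10, adjusted p = 0.0181) with the signs they had at 5 months. Of 14 opponents of Polycomb marks 7 were higher and 1 lower, among them Kdm6b (0.83, SE 0.21, adjusted p = 0.00389), which removes the PRC2 mark, and Kmt2a (0.65, SE 0.18, adjusted p = 0.00719), a methyltransferase of active promoters. Of 26 replication genes 11 were higher and 2 lower (median 0.51), with Mki67 (2.07, SE 0.47, adjusted p = 0.00213) higher and Pcna (-0.35, SE 0.08, adjusted p = 0.00157), the sliding clamp, lower. The mean log2(CPM + 1) of the replication genes was 1.69 to 2.09 (median 1.91) in low-risk and 1.81 to 3.01 (median 2.30) in uninvolved livers. All 6 cholangiocyte markers were higher, with summed levels of 38.7 to 59.7 CPM (median 48.0) in low-risk and 108 to 221 CPM (median 159) in uninvolved livers. Of 6 stellate cell markers 3 were higher and 1 lower, of 6 Kupffer cell markers 1 was higher and 4 lower (summed 278 to 341 CPM (median 316) against 138 to 279 CPM (median 199)), and of 6 hepatocyte markers 3 were lower. Their part in the differences of the 10 transcripts was not tested.

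In tumors, Suz12 was higher and Tet2 lower than in uninvolved liver, and Uhrf1 was the most raised member against livers without tumors. Between tumors and uninvolved livers 2 of the 10 passed by edgeR, against 18.1% of the 16362 genes tested (7.55% higher, 10.5% lower). Suz12 had 28.7 to 36.1 CPM with a median of 34.2 CPM in tumors, against the uninvolved values of 15.6, 18.3, 24.1, 25.2 and 28.2 CPM. The lowest tumor value lies next to the highest uninvolved one, and whether they overlap depends on the scaling. The tumors had a 1.48-fold higher level (log2 fold change 0.57, SE 0.15, adjusted p = 0.0220 by edgeR). Vehicle livers had 32.7 to 36.2 CPM with a median of 34.1 CPM, and tumors did not pass against them (log2 fold change -0.07, SE 0.07, adjusted p = 0.404 by edgeR). Tet2 had 12.9 to 17.6 CPM with a median of 14.5 CPM in tumors and was 0.596 times the uninvolved level (log2 fold change -0.75, SE 0.22, adjusted p = 0.0343 by edgeR), a call lost in 11 of 21 alternatives, among them those without uninvolved sample 1, 5 or 7. Uninvolved samples 12 and 3 with 6 lay in the tumor range, and 1, 5 and 7 above it.

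Uninvolved and tumor libraries shared a title number in 6 cases, taken here as the same mouse although the labels do not state it, and the fit with that number as a block gave 2 calls as well. The share of all genes called in the blocked fit is not given here. Over 6 mice Suz12 kept its call (0.66, adjusted p = 0.0252), Tet2 lost it (-0.52, adjusted p = 0.143) and Tet3, with 24.7, 32.2, 32.5, 33.2 and 45.2 CPM in uninvolved livers and 16.8 to 31.1 CPM with a median of 22.4 CPM in tumors, gained it (-0.40, adjusted p = 0.0477). With mice 3 and 6 left out, since their uninvolved libraries were nearly alike, the blocked differences were 0.47, adjusted p = 0.0571 for Suz12, -0.76, adjusted p = 0.0698 for Tet2, -0.43, adjusted p = 0.0432 for Tet3 and 1.22, adjusted p = 0.0322 for Uhrf1. Direction was the same for these 4 genes in the blocked and unblocked fits. Uhrf1 without the block was 0.93 (SE 0.41, edgeR adjusted p = 0.124) and passed when tumor 7, its lowest tumor value, was left out (1.10, adjusted p = 0.0273).

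**Figure D4:**
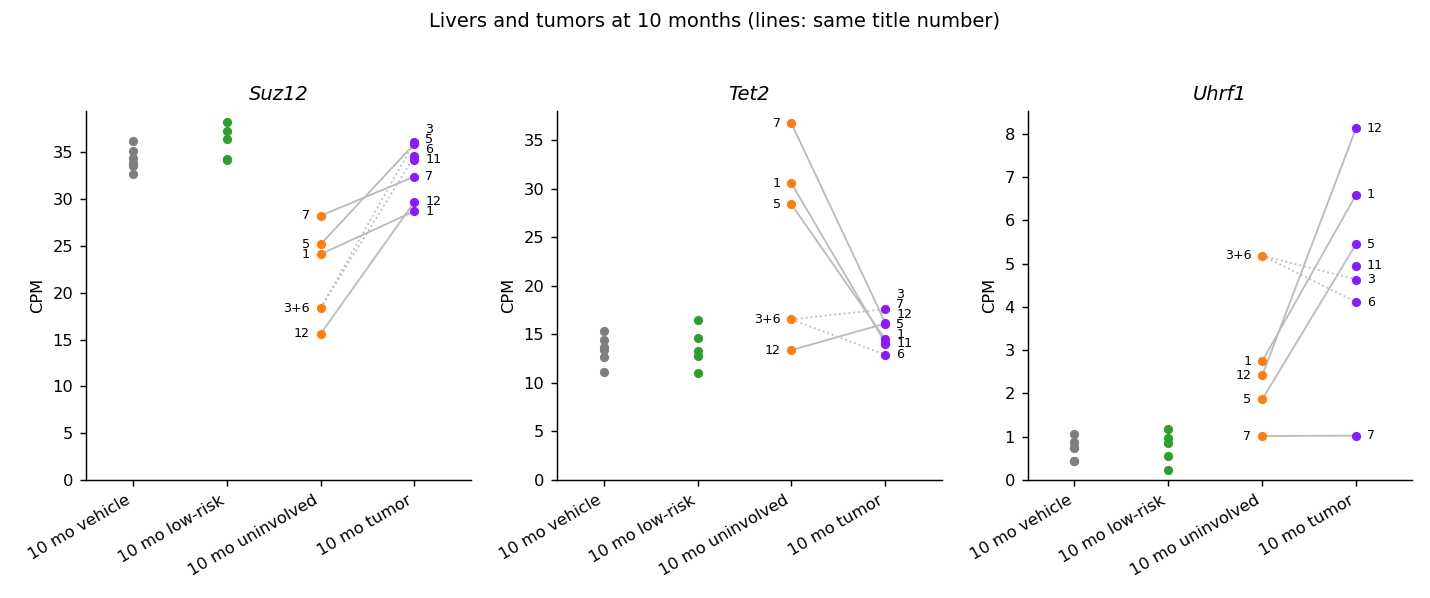
CPM of Suz12, Tet2 and Uhrf1 in the 10-month groups, with lines joining uninvolved liver and tumor of the same title number (dotted for mice 3 and 6, whose uninvolved libraries were summed). For Suz12 each line rises from uninvolved liver to tumor, from values of 15.6 to 28.2 CPM to values of 28.7 to 36.1 CPM.

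Against vehicle livers, 6 of the 10 passed in tumors (5 higher, 1 lower), against 45.9% of the 15293 genes tested (24.8% higher, 21% lower). Uhrf1 had 1.03 to 8.13 CPM with a median of 4.94 CPM in tumors and 0.431 to 1.05 CPM with a median of 0.751 CPM in vehicles and was 6.77-fold higher (log2 fold change 2.76, SE 0.37, adjusted p = 5.87e-05 by edgeR). The 6 tumors other than tumor 7 lay above the vehicle range by a wide margin. Dnmt1 was 1.31-fold higher (log2 fold change 0.39, SE 0.11, adjusted p = 0.0100 by edgeR), and Tet1 3.35-fold (log2 fold change 1.74, SE 0.44, adjusted p = 0.00468 by edgeR). Of the Polycomb enzymes both were higher, Ezh2 with 4.02 to 7.55 CPM with a median of 5.37 CPM (1.59-fold, log2 fold change 0.67, SE 0.15, adjusted p = 0.00259 by edgeR) and Ezh1 with 25.5 to 34.4 CPM with a median of 27.3 CPM (1.21-fold, log2 fold change 0.27, SE 0.08, adjusted p = 0.00960 by edgeR). Dnmt3b, with 1.82 to 3.15 CPM with a median of 2.55 CPM in tumors and 2.65 to 5.57 CPM with a median of 4.28 CPM in vehicles, was the member that fell (0.603 times the vehicle level, log2 fold change -0.73, SE 0.18, adjusted p = 0.00478 by edgeR). Against low-risk livers 4 passed, all higher, against 36.7% of the 15557 genes tested (21.3% higher): Uhrf1 (log2 fold change 2.72, SE 0.45, adjusted p = 0.000614 by edgeR), Tet1 (1.23, edgeR adjusted p = 0.0172), Ezh2 (0.54, edgeR adjusted p = 0.0135) and Dnmt1 (0.30, edgeR adjusted p = 0.0486), the last lost in 15 of 18 alternatives. The comparisons with vehicle, low-risk and uninvolved livers share the tumor samples.

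In tumors, 21 of 27 replication genes were higher and 1 lower than in low-risk livers (median 1.12, all genes 0.01), and their mean log2(CPM + 1) was 1.78 to 3.31 (median 2.88). Over all genes, 36.7% were called in tumors against low-risk livers and 18.1% against uninvolved livers. Of 25 partners of DNA methylation 6 were higher and 2 lower against low-risk livers, and of 11 PRC2 partners 1 was higher, Aebp2 (0.33, SE 0.10, adjusted p = 0.0201), and 2 lower, Rbbp4 (-0.39, SE 0.07, adjusted p = 0.000816) and Phf1 (-0.37, SE 0.11, adjusted p = 0.0185). Between tumors and uninvolved livers, 2 PRC2 partners were higher, Rbbp7 (0.36, SE 0.09, adjusted p = 0.0137) and Rbbp4 (0.30, SE 0.10, adjusted p = 0.0480), together with Suz12, and 1 was lower, Phf1 (-0.67, SE 0.12, adjusted p = 0.00457). In this comparison 1 of 27 replication genes passed, Pcna (0.58, SE 0.12, adjusted p = 0.00700), with a list median of 0.57. Summed cholangiocyte markers were 147 to 802 CPM (median 275) in tumors, and 1 of 6 was higher than in uninvolved livers. Against vehicle livers all 6 cholangiocyte markers were higher in tumors, as were 3 of 4 tested T and NK cell markers, whereas 4 of 6 hepatocyte and 4 of 4 tested erythroid precursor markers were lower, and 2 of 6 endothelial markers were higher and 4 lower. Against low-risk livers the counts were 6 of 6 cholangiocyte and 4 of 5 T and NK cell markers higher, 3 of 6 hepatocyte and 2 of 4 erythroid precursor markers lower, and 1 endothelial marker higher and 4 lower. Their part in the differences was not tested.

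Genes that these regulators are known to silence were listed as well. Of 15 germline genes whose promoters are methylated in somatic cells, 1 or 2 passed the filter on low counts in each comparison, and in high-risk, uninvolved or tumor samples against low-risk or vehicle livers 0 were higher and 1 was lower, the single gene tested in tumors against low-risk livers. Of 21 developmental genes commonly held silent by Polycomb, 8 passed the filter in high-risk against low-risk livers of 5 months, with 4 higher and 1 lower, and 8 in uninvolved against low-risk livers, with 5 higher and 0 lower. They included the biliary and progenitor factor Sox9 (1.02, SE 0.28, adjusted p = 0.00394) and the mesothelial and stellate factor Wt1 (1.86, SE 0.42, adjusted p = 0.000618) at 5 months, and Sox9 (1.6, SE 0.25, adjusted p = 6.66e-05) and Wt1 (2.07, SE 0.35, adjusted p = 0.000148) at 10 months. Of all genes, 38.9% were called in high-risk against low-risk livers (20.3% higher) and 52.4% in uninvolved against low-risk livers (27.7% higher). Against vehicle livers of 5 months, 1 of 8 tested developmental genes was higher and 0 lower in high-risk livers (15.8% of all genes called). Against vehicle livers of 10 months, 5 of 8 were higher and 0 lower in uninvolved livers (57.7% of all genes called). In tumors, 6 of 9 tested were higher and 0 lower against vehicle livers (45.9% of all genes called). Tumors had 5 of 9 higher and 0 lower against low-risk livers (36.7% of all genes called). In tumors against uninvolved livers, 0 of 9 were higher and 1 was lower (18.1% of all genes called). A gene that passes this filter only because it is high in a group must differ, so the counts describe the 8 or 9 tested and not the list of 21. Sox9 and Wt1 are also known as genes of cholangiocytes and of stellate cells, whose markers moved in the same comparisons, as given above. Sox9 is itself in the cholangiocyte marker list, so its own rise is part of those marker counts. Wt1 is not in the stellate cell list.

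**Figure D5:**
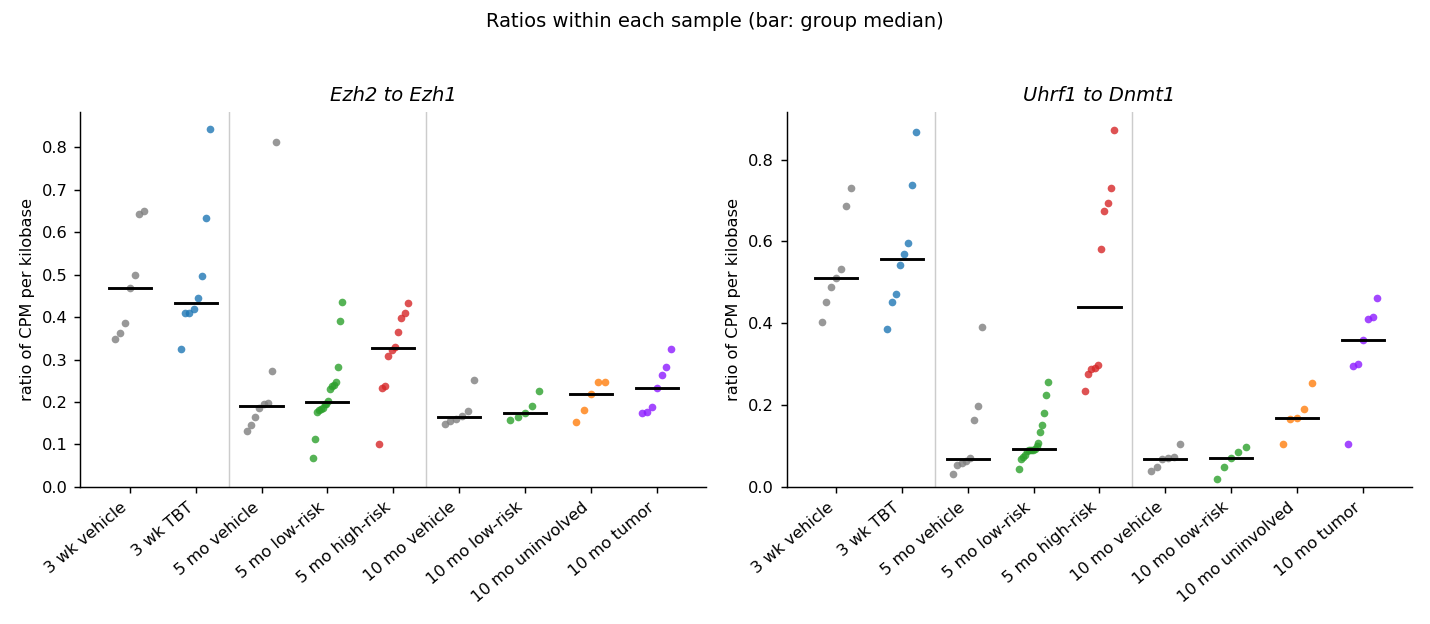
Ratio of Ezh2 to Ezh1 and of Uhrf1 to Dnmt1, both as CPM per kb, in every sample by age and group, with bars at the group medians. The Uhrf1 to Dnmt1 ratio is 0.403 to 0.731 in 3-week vehicles and 0.0392 to 0.104 in 10-month vehicles, and 0.106 to 0.462 in tumors.

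For 9 of the 10 regulators, the transcripts whose levels followed them most closely were taken as the 3 highest Pearson correlations of log2(CPM + 1) over 72 samples and 12307 genes. They describe these samples, which share ages, groups and batches, and carry no test. For Uhrf1 they were Mcm6 (0.957), Mcm5 (0.955), Aurkb (0.954), Mcm6 and Mcm5 being replicative helicase subunits and Aurkb a mitotic kinase. For Dnmt1 they were Mcm3 (0.862), Tubb5 (0.855), Mcm4 (0.847), and for Ezh2 Fignl1 (0.843), Atad2 (0.838), Pole (0.834). The nearest of Tet1 were Fbn2 (0.852), Auts2 (0.851), Prdm11 (0.851), and those of Tet3 Cramp1l (0.859), Rere (0.846), Atf7 (0.834). Dnmt3a was followed most closely by Fat4 (0.765), Sbf2 (0.754), Abl1 (0.751), and Dnmt3b by Arntl (0.713), Slc34a2 (0.679), Loxl4 (0.631), of which Arntl is a core gene of the circadian clock. Those of Ezh1 were Tdrd7 (0.861), Capn1 (0.852), Pip4k2c (0.830) and those of Suz12 Impad1 (0.759), Dnm1l (0.732), Dek (0.720). Among the members themselves, Uhrf1 correlated with Ezh2 at 0.795, with Dnmt1 at 0.768 and with Tet1 at 0.706, whereas Uhrf1 and Ezh1 correlated at -0.251 and Suz12 and Tet1 at -0.012.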

How the data were processed

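The authors deposited a table of whole-number counts, with 55536 genes in rows and 75 libraries in columns. Reads were counted with featureCounts and adjusted between batches with ComBat-seq, per the name of the deposited table, and Trim Galore, HISAT2 and mm10 are listed in the submitters' processing notes. The settings of the batch adjustment and the strand setting of the counting are not given in the sources used here. Libraries were TruSeq Stranded Total RNA, per the labels' protocols.

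Counts were fitted with edgeR 4.0.16 in R 4.3.3 (limma 3.58.1), with TMM scaling, filterByExpr, robust quasi-likelihood F tests and Benjamini-Hochberg adjustment over all genes tested at 0.05. Non-tumor groups were fitted together within an age (at 5 months, batch entered as a covariate). Each tumor comparison had its own fit of the pair of groups, and ages were compared over vehicle libraries of batch 1. SEs are those implied by the F statistic. DESeq2 1.42.0, other scaling, other filters, single batches, left-out samples and replicate blocks were alternatives, of which leaving out samples of groups over 5, protein-coding genes only and antisense levels were added after the data were seen. Libraries of 3-week vehicle mouse 3, and uninvolved libraries 3 and 6, were summed, leaving 73 samples. Libraries under 5 M (mega) counts, over 35000 genes or over 10% mitochondrial counts were left out together in an alternative.

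The 10 genes and the gene lists were chosen with earlier results of these data known. Partner genes were named by smallest adjusted p, with at least 1 CPM on average, up to 3 in each direction for a list and comparison, and those printed were picked from these after their values were seen. Simulated data served to test these fits. Tumor and uninvolved libraries of the same title number were taken as the same animal, which the labels do not state, and their deviations from the group means correlated at 0.64 for mouse 7 and between -0.27 and 0.07 for the other 5. The transcripts most like Tet2 are not reported here.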

Additional observations from a re-analysis of the deposited data

Results flagged for a closer look

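Each of the 10 transcripts was checked in every group of 4 to 10 samples for a single sample far from the rest by Dixon's criterion, which chance meets in about 1 of 20 groups. Of 80 groups 7 met it, 5 with a high and 2 with a low sample. In the library labelled 3-week TBT 4, Dnmt1 was at 90.5 CPM where the next sample had 43.6 CPM, and Uhrf1 at 45.3 CPM where the next had 18.5 CPM. This is the library whose Xist and Y-linked levels go against its label, and its replication score of 4.75 was the highest of all samples. In 5-month vehicle 9, the shallow library, Tet1 was highest at 4.73 CPM (next 1.10 CPM), Ezh1 was lowest at 7.96 CPM (next 22.2 CPM) and Suz12 was lowest at 18.9 CPM (next 29.9 CPM). In 10-month vehicles, Tet1 was at 0.647 CPM in mouse 7 (next 0.200 CPM) and Ezh2 at 4.8 CPM in mouse 5 (next 3.67 CPM).

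The 10-month library labelled both vehicle and tumor entered no comparison, and no second sample of its kind can check it. Of the 10 transcripts 7 were above the highest vehicle liver there. How many of all genes lay above the vehicle livers in this library was not counted, so the 7 cannot be set against a share. Uhrf1 was at 2.37 CPM against at most 1.05 CPM in vehicle livers, and Tet1 was at 1.30 CPM against 0.647 CPM. Tet2 was at 28.1 CPM against 15.4 CPM, a level found in 3 of 5 uninvolved livers and in 0 of 7 tumors of TBT mice, and Tet3 was at 44.8 CPM against 23.3 CPM. Ezh2 was at 11.1 CPM against 4.8 CPM, Ezh1 at 25.6 CPM against 25.2 CPM and Suz12 at 40.1 CPM against 36.2 CPM. This library had 14.1% mitochondrial counts and 11.5 M (mega) counts in all.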

How the results depend on the processing

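Over 3066 gene results under alternatives, 2909 kept their side of the threshold, 115 lost a call, 42 gained it and 0 called values changed sign. Counts of members called moved most at 5 months. The shares of all genes called under these alternatives are not given here, so the counts below cannot be set against them. High-risk against low-risk gave 5, but 3 without a filter on low counts, 0 in batch 1 alone and 3 in batch 2 alone (3 to 6 leaving out single samples). High-risk against vehicle gave 2, but 1 without a filter, 1 without the batch covariate, 0 in batch 1 alone, 0 with only these groups in the fit and 4 without deviating libraries (1 to 5 leaving out single samples). When the library labelled both vehicle and tumor was counted as vehicle, this left 4 of 8 calls for uninvolved livers and 3 of 6 for tumors against vehicle. With uninvolved libraries 3 and 6 separate, tumors against uninvolved livers had 1 call in place of 2 and the interaction 1 in place of 0. DESeq2 called 1 member between 5 and 10 months. Leaving out single samples gave 6 to 7 calls for uninvolved against low-risk, 7 to 10 against vehicle, 1 to 4 for tumors against uninvolved, 6 to 7 against vehicle, 3 to 4 against low-risk, and 0 for low-risk against vehicle and for the interaction. The cause of these changes was not tested. As a replicate block, the title numbers outside the 6 tumor and uninvolved pairs share only a number. With that block 0 members passed in high-risk against vehicle livers (Uhrf1 0.16), 6 in uninvolved and 4 in tumor against vehicle livers. Low-risk livers and tumors share no number, so no such fit was possible. Without the filter the median of all genes moved to 0.50 for high-risk against low-risk livers. Tet1, Dnmt3b and Uhrf1 had few counts in shallow libraries, which limits their precision.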
